A study of Mus musculus with 6 samples.

Results

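The HOX genes of the 4 mouse clusters (HOXA, HOXB, HOXC and HOXD) were followed in small-cell lung cancer (SCLC) cells with and without active TAZ. The members were selected by name alone, as every symbol made of Hox, a cluster letter and a paralogue number, and 39 of the 23361 symbols of the expression table qualified: 11 HOXA, 10 HOXB, 9 HOXC and 9 HOXD genes. The set was taken up with earlier results of this comparison known. The members' values are therefore a description, and no p-value is given for them.

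RNA-seq was done on SMC, the SCLC metastasizing cell line, 1 line whose cells carry much NCAM and little or no CD44. These cells were sorted by flow cytometry from lung tumours that arose after Cre virus was given to mice with floxed Rb1 and Trp53 (Rb1 L/L, Trp53 L/L) on a mixed C57Bl/6, Balb-c and S129 background, and both groups share these deletions. The 3 SMC-Ctrl libraries are from cells given a control virus. The 3 SMC-TAZ4SA libraries are from cells given a virus for TAZ4SA, a mutant form of the co-activator TAZ that is always active, and infected cells were selected with puromycin. The comparison asks what active TAZ does to the expression state of SMC. Sample titles and design text define the groups, whereas the study's data statement pairs this series with SMC and non-SMC cells, a difference that was not resolved. No source says that the libraries of a group came from separate cultures, so the spread between them may be technical.

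HOX genes encode homeodomain transcription factors that specify position along the body axis. Within a cluster they lie in the order in which they are used from head to tail, and genes with the same number in different clusters are paralogues. Low numbers are called anterior (here 1 to 3), middle numbers central (4 to 8) and high numbers posterior (9 to 13). HOX proteins bind DNA with cofactors of the TALE family (PBX, MEIS and PKNOX proteins). Polycomb complexes keep HOX clusters silent, trithorax and MLL complexes keep them active, and retinoic acid and CDX factors are known activators in the embryo. HOXA and HOXB genes are used in the lung, and Hoxa5 is needed for mouse lung development.

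Values are FPKM, fragments normalised for transcript length and library size, so levels can be set side by side between genes per length. FPKM sums were 284422 to 297034 in SMC-Ctrl and 324938 to 361800 in SMC-TAZ4SA, and the read depth itself is unknown. From the steps in low values, depth relative to SMC-Ctrl replicate 1 was 0.968 to 1.09 in SMC-Ctrl and 0.712 to 0.959 in SMC-TAZ4SA. The gene of TAZ, Wwtr1, rose from 0.143 ± 0.033 to 34.5 ± 2.41 FPKM (SD, n = 3; limma adjusted p = 3.51e-10), in the direction of the labels. Of 7 neuroendocrine SCLC markers, 7 reached 1 FPKM in all SMC-Ctrl libraries and 3 in all SMC-TAZ4SA libraries, where Chga, a granule protein of neuroendocrine cells, stood at 0.142 to 0.439 FPKM. Ncam1, the gene of the sort marker NCAM and on the same list, went the other way, with 20.1 to 22.3 FPKM in SMC-Ctrl and 72.8 to 81.8 FPKM in SMC-TAZ4SA. Some zeros may be failed estimates, since Rps12 and Rps28, ribosomal protein genes that every cell uses, were listed at 0 in all 6 libraries. HOX genes without a value are therefore called listed at 0.

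In SMC-Ctrl, all HOX values above 0 came from 1 cluster. Hoxb2, Hoxb3, Hoxb4, Hoxb5, Hoxb6, Hoxb7, Hoxb8 and Hoxb9 each reached 1 FPKM in all 3 libraries, and the other 31 members were listed at 0 in every SMC-Ctrl library. With TAZ4SA all 8 of these HOXB genes were lower, while 27 of the 31 genes listed at 0 had a value in at least 1 library, 22 of them in all 3. Hoxb1, Hoxc11, Hoxd11 and Hoxd12 were listed at 0 in all 6 libraries. Of all symbols with a single line, 28.2% were listed at 0 in every SMC-Ctrl library. Of these symbols, 21.4% had a value in at least 1 SMC-TAZ4SA library and 8.88% in all 3, and nothing is read from the members' counts, since the set was taken up with this contrast known.

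**Figure D1:**
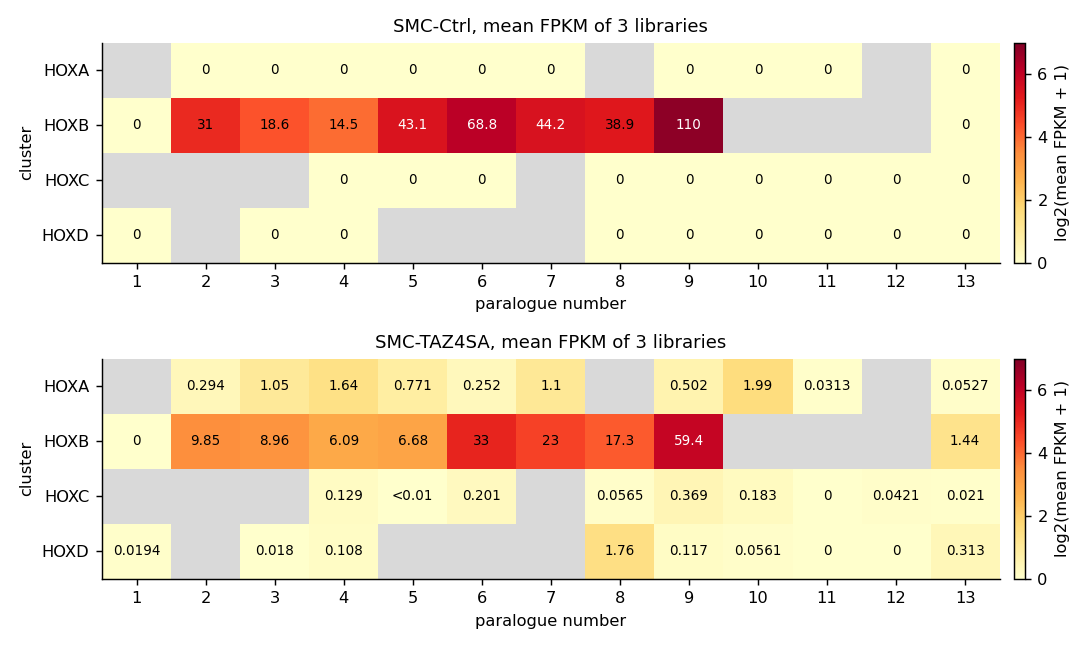
Mean FPKM of 3 libraries for the HOX genes reported, by cluster (rows) and paralogue number (columns), in SMC-Ctrl (top) and SMC-TAZ4SA (bottom). Colour is log2(mean FPKM + 1), the number in a cell is the mean FPKM, and grey cells hold no reported member. In SMC-Ctrl only the HOXB row has values above 0, at paralogues 2 to 9, and in SMC-TAZ4SA low values appear in all 4 rows.

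The HOX genes that carried the comparison lie on chr11 (HOXB, chr11:96194316-96368256), chr6 (HOXA) and chr2 (HOXD, chr2:74668310-74765142) of GRCm38, by the GENCODE M21 annotation. HOXC lies at chr15:102921103-103036852. Promoter sequence from RefSeq (build GRCm38.p6) was matched for 22 of the 39 members, with 24 starts. The 250 bases before the start are shown 5′ to 3′. Hoxb4 and Hoxb8 are shown as the only HOXB genes lower with TAZ4SA that had promoter sequence. Hoxa10 (both starts) and Hoxd8 are shown as the highest genes of their clusters among those listed at 0 in SMC-Ctrl. The windows are Hoxb4 at chr11:96318017-96318266 (plus strand), Hoxb8 at chr11:96281655-96281904 (plus strand), Hoxa10 at chr6:52240855-52241104 and chr6:52234940-52235189 (minus strand), and Hoxd8 at chr2:74704365-74704614 (plus strand). Capitals mark matches to a CDX motif (TTTATG, or CATAAA on the other strand) or a PBX-HOX motif (TGATNNAT, or ATNNATCA on the other strand). None of these 5 windows held the TEAD motif (GGAATG, or CATTCC on the other strand), the DNA element of the TEAD factors through which TAZ acts.
Hoxb4: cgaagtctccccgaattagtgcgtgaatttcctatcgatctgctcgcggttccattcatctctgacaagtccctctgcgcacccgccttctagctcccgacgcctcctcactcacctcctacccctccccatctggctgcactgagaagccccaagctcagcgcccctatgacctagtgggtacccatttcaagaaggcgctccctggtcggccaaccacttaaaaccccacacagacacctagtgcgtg
Hoxb8: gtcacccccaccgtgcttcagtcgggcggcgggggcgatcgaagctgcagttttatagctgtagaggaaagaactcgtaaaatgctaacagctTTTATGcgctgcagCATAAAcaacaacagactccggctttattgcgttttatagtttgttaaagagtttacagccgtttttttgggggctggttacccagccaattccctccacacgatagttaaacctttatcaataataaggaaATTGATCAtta
Hoxa10, distal start: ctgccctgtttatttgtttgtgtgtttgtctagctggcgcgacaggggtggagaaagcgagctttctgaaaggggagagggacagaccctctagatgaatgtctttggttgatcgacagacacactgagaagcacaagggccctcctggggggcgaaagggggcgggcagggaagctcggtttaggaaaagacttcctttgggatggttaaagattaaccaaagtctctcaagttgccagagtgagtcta
Hoxa10, internal start: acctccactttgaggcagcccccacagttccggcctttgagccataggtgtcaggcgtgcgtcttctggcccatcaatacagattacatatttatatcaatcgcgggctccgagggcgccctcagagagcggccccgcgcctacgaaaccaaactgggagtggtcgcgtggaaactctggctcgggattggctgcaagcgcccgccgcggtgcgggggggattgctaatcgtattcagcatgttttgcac
Hoxd8: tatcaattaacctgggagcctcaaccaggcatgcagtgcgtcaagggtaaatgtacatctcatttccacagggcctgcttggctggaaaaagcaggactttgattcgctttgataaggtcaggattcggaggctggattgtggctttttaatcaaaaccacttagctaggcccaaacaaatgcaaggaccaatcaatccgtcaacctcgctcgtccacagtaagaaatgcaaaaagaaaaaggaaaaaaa
Of the 5 windows only that of Hoxb8 held matches, 2 to the CDX motif (in opposite orientation) and 1 to the PBX-HOX motif, with no overlap between them. Over the 24 HOX windows, 5 (20.8%) held the CDX motif, 4 (16.7%) the PBX-HOX motif and 1 (4.17%) the TEAD motif, the last being Hoxa9. Beside Hoxb8, the CDX motif stood in windows of Hoxa7, Hoxd3, Hoxd4 and Hoxd11, which were listed at 0 in SMC-Ctrl. Of the 32851 promoters of the same length, 10.8%, 7.68% and 12.6% held them. Median GC content was 58.6% in the HOX windows and 52.4% in all promoters. A match is a run of letters and not a measured site.

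Among the anterior HOXB genes, Hoxb2, which acts in the hindbrain, had 33.5, 34.6 and 24.8 FPKM in SMC-Ctrl replicates 1 to 3 and 8.63, 12.0 and 8.97 FPKM in SMC-TAZ4SA replicates 1 to 3. Its groups did not overlap, and SMC-Ctrl replicate 3 was the lowest of its group. The mean went from 31.0 ± 5.36 to 9.85 ± 1.84 FPKM (SD, n = 3), a ratio of 0.318, or 0.289 without SMC-Ctrl replicate 3. Hoxb3, another hindbrain and neck gene, had 19.5, 17.8 and 18.6 FPKM in SMC-Ctrl and 8.19, 9.14 and 9.54 FPKM in SMC-TAZ4SA, with no overlap and a ratio of 0.480.

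Among the central HOXB genes, Hoxb5 stood apart, and the others had ratios of 0.421 to 0.519. Hoxb5, which is expressed in the mesenchyme of the developing mouse lung and in the enteric nervous system, had 44.4, 43.3 and 41.7 FPKM in SMC-Ctrl and 6.71, 6.60 and 6.73 FPKM in SMC-TAZ4SA. The groups lay far apart and each was tight. Its ratio of 0.155 was the lowest of the 8 HOXB genes, and over all pairs of 1 library from each group it ran from 0.149 to 0.162. On the log2(FPKM + 1) scale, Hoxb5 was lower by a difference of -2.52 ± 0.05 (SE), against -1.56 ± 0.15 for Hoxb2, the next in size.

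Hoxb4, known for expanding blood stem cells, had 14.1, 14.3 and 15.0 FPKM in SMC-Ctrl and 6.14, 6.17 and 5.97 FPKM in SMC-TAZ4SA, a ratio of 0.421. It was the lowest of the 8 genes in both groups. Hoxb6, a trunk patterning gene, had 65.6, 73.4 and 67.4 FPKM in SMC-Ctrl and 34.0, 31.8 and 33.1 FPKM in SMC-TAZ4SA, a ratio of 0.479. Hoxb7, which is active in the ureteric bud of the kidney, had 40.6, 44.3 and 47.7 FPKM in SMC-Ctrl and 23.1, 22.6 and 23.3 FPKM in SMC-TAZ4SA, a ratio of 0.519. Neither gene had overlapping groups, and SMC-Ctrl libraries spread more than SMC-TAZ4SA libraries in both. Hoxb8, a factor of myeloid progenitors, had 40.4, 40.3 and 35.9 FPKM in SMC-Ctrl and 16.7, 18.6 and 16.7 FPKM in SMC-TAZ4SA, a ratio of 0.446.

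Hoxb9, a posterior gene that patterns the ribs of the mouse, was the highest HOX gene in both groups. It had 112, 112 and 105 FPKM in SMC-Ctrl and 60.2, 58.4 and 59.5 FPKM in SMC-TAZ4SA. Its groups did not overlap, and its ratio of 0.541 was the highest of the 8 genes.

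**Figure D2:**
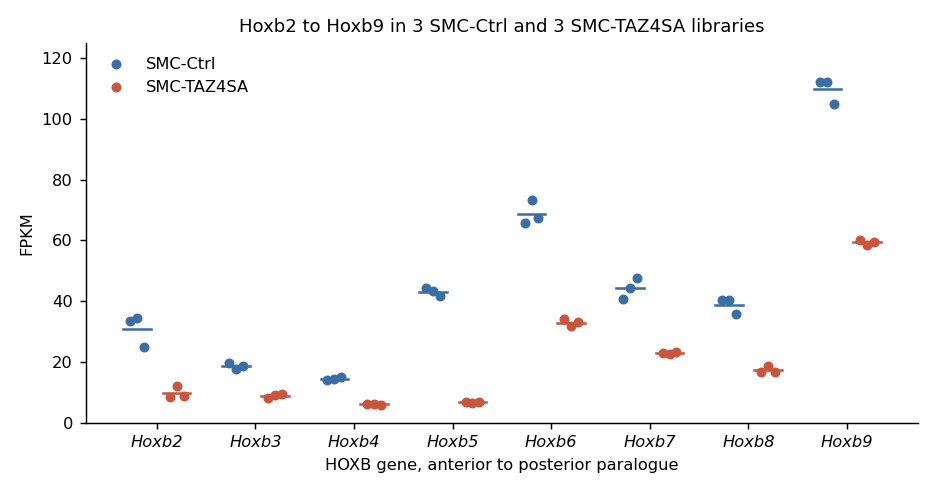
FPKM of Hoxb2 to Hoxb9 (horizontal axis, anterior to posterior paralogue) in each SMC-Ctrl and SMC-TAZ4SA library; points are libraries and short lines are means of 3. For each of the 8 genes all SMC-TAZ4SA libraries lie below all SMC-Ctrl libraries.

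In SMC-Ctrl the order of levels was Hoxb9, Hoxb6, Hoxb7, Hoxb5, Hoxb8, Hoxb2, Hoxb3 and Hoxb4, and only the ranges of the neighbours Hoxb7 and Hoxb5 overlapped. In SMC-TAZ4SA the order was Hoxb9, Hoxb6, Hoxb7, Hoxb8, Hoxb2, Hoxb3, Hoxb5 and Hoxb4, and only those of Hoxb2 and Hoxb3 overlapped. Hoxb5 thus went from rank 4 to rank 7. Hoxb5 made up 11.7 ± 0.303% of the 8 genes' summed FPKM without TAZ4SA and 4.07 ± 0.063% with it (SD, n = 3). The share of Hoxb9 was 29.7 ± 0.446% and 36.2 ± 0.732%, and that of Hoxb8 was 10.5 ± 0.422% and 10.6 ± 0.607%, whose ranges overlapped.

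**Figure D3:**
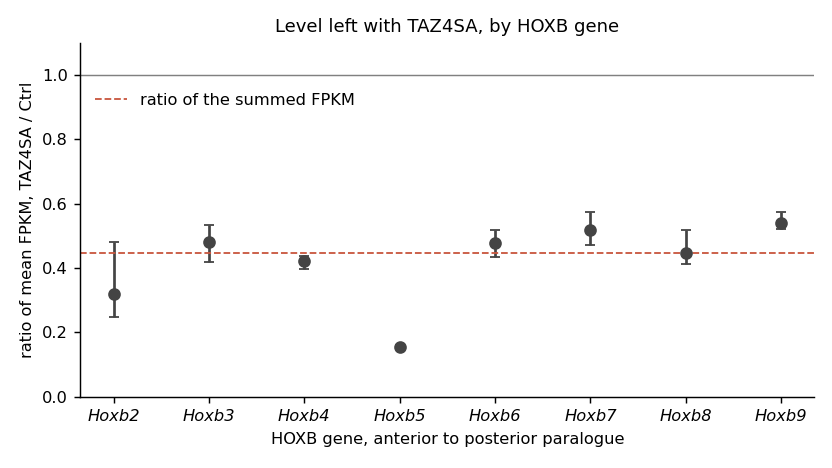
Ratio of mean FPKM in SMC-TAZ4SA to that in SMC-Ctrl for Hoxb2 to Hoxb9; bars run from the lowest to the highest ratio over all pairs of 1 library from each group, and the dashed line is the ratio of the summed FPKM, 0.445. Hoxb5, at 0.155, lies below the other 7 genes, which lie between 0.318 and 0.541.

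Summed over these 8 genes, the level was 370, 380 and 356 FPKM in SMC-Ctrl replicates 1 to 3 and 164, 165 and 164 FPKM in SMC-TAZ4SA replicates 1 to 3, a ratio of 0.445. By range within the cluster, the ratio of summed FPKM was 0.379 for the anterior, 0.411 for the central and 0.554 for the posterior HOXB genes. The posterior value includes Hoxb13, which was listed at 0 in SMC-Ctrl.

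Of the 31 members listed at 0 in SMC-Ctrl, 7 reached 1 FPKM in a library, all of them in SMC-TAZ4SA. Hoxb13, a gene of the tail and prostate at the far end of the HOXB cluster, had 1.52, 1.38 and 1.42 FPKM in SMC-TAZ4SA. It was the 1 HOXB gene that was higher there. Hoxd8, a central gene, was the 1 HOXD gene over 1 FPKM, with 2.16, 1.94 and 1.19 FPKM, and SMC-TAZ4SA replicate 3 was the lowest.

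The others were HOXA genes, of which 4 are reported. Hoxa10, which acts in the uterus and limb, was the highest of the 31 in SMC-TAZ4SA replicate 1, with 2.26, 1.90 and 1.80 FPKM in replicates 1 to 3. Hoxa4, a central gene, had 1.59, 1.80 and 1.52 FPKM. Both were over 1 FPKM in every SMC-TAZ4SA library. Hoxa7, a trunk gene, had 1.12, 1.29 and 0.901 FPKM, and Hoxa3, which is needed for the thymus and parathyroid, had 0.851, 1.28 and 1.03 FPKM. All 6 genes named here had values in each of the 3 SMC-TAZ4SA libraries and none in SMC-Ctrl.

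The remaining 20 members with a value stayed below 1 FPKM in every library, with SMC-TAZ4SA means of 0.00716 to 0.771 FPKM. The 6 HOXA genes among them were Hoxa2, Hoxa5, Hoxa6, Hoxa9, Hoxa11 and Hoxa13. Hoxa5, the lung gene, was just below the line with 0.827, 0.960 and 0.524 FPKM. The 8 HOXC genes were Hoxc4, Hoxc5, Hoxc6, Hoxc8, Hoxc9, Hoxc10, Hoxc12 and Hoxc13, and their highest value was 0.561 FPKM, for Hoxc9. The 6 HOXD genes were Hoxd1, Hoxd3, Hoxd4, Hoxd9, Hoxd10 and Hoxd13, and their highest value was 0.395 FPKM, for Hoxd13, a gene of the digits.

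Steps were looked for in the 14 genes that stayed below 0.3 FPKM. In 10 of them the depth-corrected SMC-TAZ4SA values were whole multiples, within 0.1, of the lowest value divided by 1, 2 or 3. A gene with a value in 1 library, as Hoxc12, is whole by construction, and many steps can be whole by chance. Hoxa11, Hoxa13, Hoxc5 and Hoxc12 stood at 0 or 1 step in each SMC-TAZ4SA library, and the most was 14 steps, for Hoxd4 in replicate 3. How many fragments make a step is not known.

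**Figure D4:**
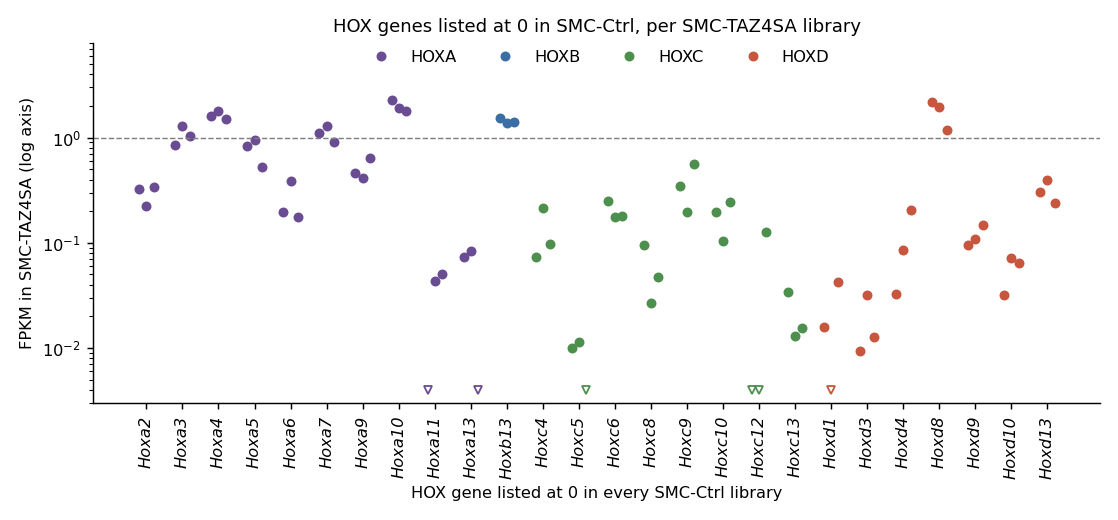
FPKM (log axis) in each SMC-TAZ4SA library for the 26 HOX genes shown of the 27 that were listed at 0 in every SMC-Ctrl library and had a value with TAZ4SA, coloured by cluster; open triangles at the bottom are libraries listed at 0, and the dashed line is 1 FPKM. Hoxa10, Hoxa4, Hoxb13 and Hoxd8 lie above the line in all 3 libraries.

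Summed over a cluster, HOXA was listed at 0 in SMC-Ctrl and had 8.71, 9.16 and 7.64 FPKM in SMC-TAZ4SA replicates 1 to 3. HOXD had 2.65, 2.64 and 1.90 FPKM and HOXC had 1.01, 0.745 and 1.27 FPKM. These sums were small beside HOXB, which still held 93.3 ± 0.486% of all HOX FPKM in SMC-TAZ4SA (SD, n = 3). Over all 39 members the sum was 356 to 380 FPKM in SMC-Ctrl and 176 to 179 FPKM in SMC-TAZ4SA. Within HOXA, the central genes had 3.76 FPKM and the posterior genes 2.57 FPKM as the mean of 3 libraries, whereas HOXD was mostly Hoxd8.

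By paralogue number, groups 2 to 9 had most of their FPKM in HOXB in both groups of libraries. Groups 1, 10, 11, 12 and 13 had values in SMC-TAZ4SA only. In groups 11 and 12 these were the low values of Hoxa11 and Hoxc12 alone. The ratio of summed FPKM was lowest in group 5 (Hoxa5, Hoxb5 and Hoxc5), at 0.173, and highest in groups 4 and 9, at 0.550.

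Of the 39 members, 12 passed the expression filter of 1 FPKM in at least 3 of the 6 libraries. All 12 had groups that did not overlap, 8 lower and 4 higher with TAZ4SA, and limma called the same 12. The 4 higher genes were listed at 0 in SMC-Ctrl, so they passed the filter only because all 3 SMC-TAZ4SA libraries reached 1 FPKM. Their lack of overlap was thus fixed by the filter, and their calls are no further evidence. Of all 12141 tested genes, 82.4% did not overlap and 80.3% were called, 39.7% as lower and 40.7% as higher, so nothing is read from the members' count. With each library scaled to the same FPKM total, the median difference over all tested genes moved from 0.02 to -0.18 on the log2 scale, and calls split into 3987 higher and 5875 lower in place of 4939 and 4815. The 8 HOXB genes were lower under this scaling too.

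Several markers of mesenchymal cells were higher with TAZ4SA, as the HOXA, HOXC and HOXD values were, but not all. The summed FPKM of 10 fibroblast and mesenchymal markers was 1.76 to 2.11 in SMC-Ctrl and 1152 to 1276 in SMC-TAZ4SA, with 1 and 6 of the 10 reaching 1 FPKM in all libraries of the group. Lum, Col1a2, Col3a1 and Acta2 were listed at 0 in SMC-Ctrl. In SMC-TAZ4SA, Acta2 stood at 753 to 926 FPKM and Col1a1 at 249 to 293 FPKM, while Pdgfra, Dcn, Lum and Fap, which mark fibroblasts, stayed below 1 FPKM in every library. Dcn and Fap were lower with TAZ4SA. Dcn was at 0.127 to 0.179 FPKM in SMC-Ctrl and 0 to 0.0222 FPKM in SMC-TAZ4SA, and Fap at 0.0809 to 0.0912 and 0.0275 to 0.0612 FPKM. Leukocyte markers summed to 0.942 to 1.20 and 3.67 to 4.51 FPKM, endothelial markers to 29.6 to 34.0 and 2.09 to 2.49 FPKM, and lung epithelial markers to 22.3 to 27.3 and 4.23 to 5.93 FPKM. Each of these sums was carried by few genes. Csf1r, a macrophage receptor, made most of the leukocyte sum in SMC-TAZ4SA, at 2.97 to 3.39 FPKM, and was listed at 0 in SMC-Ctrl. Vwf went from 29.0 to 33.4 FPKM down to 0.0113 to 0.0225 FPKM, while Kdr, also endothelial, was at 0.437 to 0.487 and 1.88 to 2.38 FPKM. Scgb1a1, at 18.1 to 23.8 FPKM in SMC-Ctrl, was listed at 0 with TAZ4SA, while Ager, also epithelial, was at 1.14 to 1.24 and 3.47 to 4.86 FPKM. Their part in the HOX values was not tested, and in bulk RNA fewer cells with a transcript and less transcript per cell cannot be told apart.

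Several members share sequence with other transcripts. By the annotation, antisense genes overlap Hoxa3 to Hoxa7 (Hoxaas3), Hoxb2 and Hoxb3 (Hoxb3os), Hoxb5 and Hoxb6 (Hoxb5os), and Hoxd3, Hoxd4 and Hoxd8 (Hoxd3os1). None of these has a line under that name in the table, and earlier names were not searched. Whether strand was used in counting is not given in the sources used here, so reads of either partner cannot be told apart. Hoxa3 with Hoxa4, Hoxa5 and Hoxa6, Hoxd3 with Hoxd4, and Hoxc5 with Hoxc6, Hoxc8, Hoxc9 and Hoxc10 overlap on the same strand, and these values are uncertain for that reason.

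Of 9 TALE cofactors, the partners of HOX proteins, all were tested, and 7 fell, 1 rose and 1 did not pass (limma, 2-sided, adjusted over all 12141 genes). Over all tested genes 39.7% were called lower and 40.7% higher, the shares against which this and the following lists are to be read. The median log2 difference was -0.69, beside 0.02 over all tested genes. These genes are no members, so they were tested. The lists too were chosen with earlier results of these data known, and genes named from the other lists mostly have the largest differences. Their p-values therefore describe this contrast and are no independent support.

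Pknox2 fell most, from 7.81, 8.08 and 8.07 FPKM in SMC-Ctrl to 0.214, 0.0971 and 0.126 FPKM in SMC-TAZ4SA, a log2 difference of -2.97 ± 0.06 (SE; limma adjusted p = 1.69e-09). Pknox1 fell from 16.1 ± 0.396 to 8.07 ± 0.192 FPKM (SD, n = 3; limma adjusted p = 1.28e-06). Meis2, the highest MEIS gene in SMC-Ctrl, fell from 22.5 ± 1.22 to 12.6 ± 0.637 FPKM, and Meis3 fell from 8.95 ± 0.330 to 4.70 ± 0.666 FPKM, with limma adjusted p = 9.83e-06 and 5.78e-05. Among PBX genes, Pbx2, Pbx3 and Pbx4 fell by 0.31, 0.43 and 0.69 on the log2 scale, with limma adjusted p = 0.00298, 0.000225 and 0.000258.

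Meis1, the usual partner of posterior HOXA proteins in leukaemia, had 2.53 to 2.73 FPKM in SMC-Ctrl and 2.80 to 3.33 FPKM in SMC-TAZ4SA. Its log2 difference of 0.16 ± 0.07 (SE) did not pass (limma adjusted p = 0.0597). Without SMC-TAZ4SA replicate 2 it passed with a difference of 0.21, and with libraries scaled to the same total it was -0.0039.

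Of 11 PRC2 genes, which write the silencing mark on histone H3, 7 fell, 1 rose and 3 did not pass, with a median of -0.30. With libraries scaled to the same total, 48.4% of all tested genes were called lower, as were 8 of the 11 PRC2 genes. Jarid2, an accessory subunit that helps bring PRC2 to its targets, fell from 33.3, 31.9 and 29.8 FPKM to 4.35, 5.16 and 5.14 FPKM, a log2 difference of -2.47 (limma adjusted p = 2.10e-08). Ezh1, a catalytic subunit, fell by 1.20 and Phf19, an accessory subunit, by 0.91 on the log2 scale (limma adjusted p = 4.38e-07 and 4.29e-06). The 1 gene that rose was Eed (log2 difference 0.19, limma adjusted p = 0.0301), named after its values were seen. It did not pass with libraries scaled to the same total or upper quartile, with a replicate block, or without SMC-Ctrl replicate 1, SMC-Ctrl replicate 2 or SMC-TAZ4SA replicate 2, each of which left 0 PRC2 genes higher.

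Of 18 PRC1 genes, whose products bind that mark and ubiquitinate H2A, 9 fell, 4 rose and 5 did not pass, with a median of -0.15. This share lower lay near that of all tested genes (39.7%), as did the 10 of 18 lower with libraries scaled to the same total (48.4% of all tested genes). Cbx2, a reader subunit, fell from 47.3 ± 2.54 to 12.3 ± 0.501 FPKM (limma adjusted p = 3.40e-08). Cbx7, another reader, fell by 1.56 and Bmi1, a core subunit, by 1.19 on the log2 scale (limma adjusted p = 1.00e-06 and 1.47e-06). The 4 that rose, named after their values were seen, were Pcgf5, Phc2, Phc3 and Yaf2, with log2 differences of 0.89, 0.48, 0.48 and 0.48. With libraries scaled to the same total, 3 PRC1 genes were called higher.

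Of 13 trithorax and MLL genes, which act on the side of active HOX chromatin, 9 fell, 2 rose and 2 did not pass, with a median of -0.47. Kdm6a, a demethylase that removes the Polycomb mark, fell from 21.0 ± 0.243 to 9.53 ± 1.51 FPKM (limma adjusted p = 2.23e-05). Mll1, the table's name for Kmt2a, the methyltransferase best known for keeping HOX genes on, fell from 19.3 ± 2.03 to 10.5 ± 3.11 FPKM (limma adjusted p = 0.00403). Its SMC-TAZ4SA values were 6.98, 11.9 and 12.7 FPKM, lowest in replicate 1. Wbp7, the table's name for Kmt2b, fell by 0.80 on the log2 scale (limma adjusted p = 0.000358). The 2 that rose, Ash2l and Mllt1, were named after their values were seen. Neither passed with libraries scaled to the same total. With the same upper quartile, with a replicate block, or without SMC-Ctrl replicate 1, SMC-Ctrl replicate 3, SMC-TAZ4SA replicate 2 or SMC-TAZ4SA replicate 3, Ash2l passed and Mllt1 did not.

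Genes of retinoic acid supply and response changed in both directions. Of 18 listed genes 13 were tested, of which 7 fell and 6 rose, with a median of -0.56. Aldh1a2, the main retinoic acid synthesis enzyme of the embryo, fell from 69.1, 70.9 and 69.9 FPKM to 2.28, 2.31 and 1.69 FPKM, a log2 difference of -4.52 ± 0.09 (SE; limma adjusted p = 1.38e-09). Aldh1a1, another such enzyme, fell by 2.05 on the log2 scale (limma adjusted p = 4.00e-08). Rarg, a retinoic acid receptor, rose from 0.635, 0.641 and 0.463 FPKM to 20.6, 19.9 and 19.1 FPKM, a log2 difference of 3.73 (limma adjusted p = 1.19e-09).

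Among 9 CDX and other upstream factors 5 were tested, of which 3 fell and 2 rose, with a median of -0.56. Cdx2, a caudal factor that activates central HOX genes in the embryo, had 21.7, 24.6 and 21.1 FPKM in SMC-Ctrl and 0.0665, 0.0454 and 0.0358 FPKM in SMC-TAZ4SA. Its groups lay far apart (log2 difference -4.48 ± 0.07, SE; limma adjusted p = 5.70e-10). Cdx4 was listed at 0 in every library, and Cdx1 stood at 0 to 0.0229 FPKM. Egr2 (Krox20), a hindbrain activator of Hoxb2, rose from 0.695 ± 0.216 to 4.01 ± 0.189 FPKM (limma adjusted p = 1.29e-06).

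Genes beside the clusters were read to see whether a change ran past the last HOX gene. Of 9 tested neighbours 6 rose and 3 fell, with a median of 0.29, but only 3 rose with libraries scaled to the same total. Skap1, the nearest protein-coding gene beyond Hoxb1 at 96.3 kb, fell from 9.49, 10.8 and 10.6 FPKM to 0.373, 0.169 and 0.253 FPKM, a log2 difference of -3.16 (limma adjusted p = 5.80e-09). Hoxb1 between Skap1 and Hoxb2 was listed at 0 throughout. On the other side of HOXB, Ttll6, at 28.9 kb from Hoxb13, stood at 0 to 0.0339 FPKM.

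Beside HOXA, Skap2, at 143 kb from the cluster's anterior end, rose from 5.54, 5.76 and 6.58 FPKM to 19.2, 16.9 and 16.3 FPKM (limma adjusted p = 1.23e-06). Snx10, further out on the same side at 565 kb, rose from 0.805 ± 0.180 to 5.20 ± 0.479 FPKM (limma adjusted p = 4.00e-07). Beside HOXC, where low values appeared with TAZ4SA, the neighbours went both ways and were named after their values were seen. Smug1 fell from a mean of 7.11 to 3.41 FPKM and Cbx5 from 63.5 to 39.9 FPKM. Calcoco1, beyond the other end of HOXC, rose from 8.55 to 12.6 FPKM. Hotair, the antisense RNA within HOXC, was listed at 0 in all 6 libraries. The HOXD neighbours, too, were named after their values were seen. Mtx2, at 60.7 kb from Hoxd1, rose from a mean of 26.1 to 32.8 FPKM. Lnp (Lnpk), at 88.9 kb from Hoxd13, rose from a mean of 5.29 to 6.63 FPKM. Skap1 and Skap2 are paralogues that encode adaptor proteins of immune signalling, and they changed in opposite directions.

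**Figure D5:**
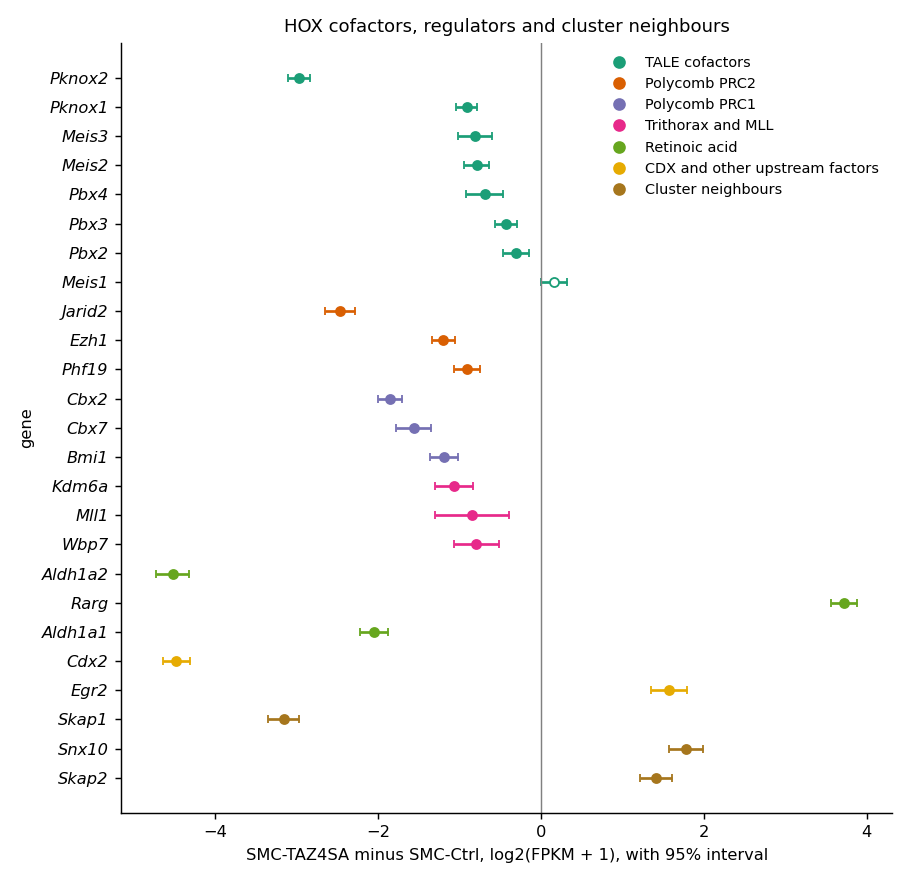
Difference between SMC-TAZ4SA and SMC-Ctrl in log2(FPKM + 1) for 8 TALE cofactors and up to 3 genes with the largest difference in each other list; bars are 95% intervals from limma, colours are lists, and the open point (Meis1) did not pass. Pknox2, Aldh1a2, Cdx2 and Skap1 lie below -2.5, and Rarg lies highest at 3.73.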

How the data were processed

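RNA of 3 SMC-Ctrl and 3 SMC-TAZ4SA libraries was extracted with TRIzol and sequenced as read pairs on a NovaSeq instrument. The submitters' processing notes name STAR 2.6 and the build mm10. The authors deposited 1 table of FPKM values, with 1 column for each library. The tool and annotation used for this were not given in the sources used here. No column of samples was left unused. Groups were taken from the sample titles.

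Members and lists were chosen with earlier results of these data known. Genes at 1 FPKM or more in at least 3 of 6 libraries were tested, 12141 in all, and 254 symbols on several lines were left out. Values were compared as log2(FPKM + 1), which understates the change of low genes, with limma 3.58.1 in R 4.3.3 (group as the only term, empirical Bayes with a trend, 2-sided, Benjamini-Hochberg adjustment over all tested genes, threshold 0.05). The fit was tested on simulated data. P-values reflect the spread of libraries within a group, which may be technical. HOX genes reaching 1 FPKM in a library were described with each value. All TALE cofactors, and from each other list the 3 genes with the largest log2 difference, were named with their test, and a few genes that these rules name are not reported here. Prac1, Prac2, Hottip, Halr1 and Haglr were not analysed here.

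Alternatives were pseudocounts of 0.1 and 0.5, no filter, a filter of 0.1 FPKM, scaling to the same total or upper quartile, a replicate block, and leaving out each library.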

Additional observations from a re-analysis of the deposited data

How the results depend on the processing

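Of 247 summary values recomputed under the alternatives, 228 stayed close to the reported ones and 19 moved. Among 572 values of single genes, 32 moved, all of them for Hoxb2 to Hoxb9. Meis1 newly passed the threshold in 1, and none of them changed direction while called. HOXB values were judged against their spread, the other genes only by their call. Cdx2 thus did not count as moved, at -7.24 with a pseudocount of 0.1 in place of -4.48. Ratios could not change with the pseudocount, filter or block, nor log2 differences with the filter or block. The ratios of Hoxb3 to Hoxb9 all moved with both scalings, that of Hoxb9 from 0.541 to 0.465 (same total) and 0.487 (same upper quartile). The lower expression of Hoxb2 to Hoxb9 held under all 13 alternatives. The ratio of their sums was 0.383 with libraries scaled to the same total and 0.401 with the same upper quartile, and 0.438 to 0.452 with 1 library left out. The number of HOX genes called higher was 19 with no filter and 15 with the filter of 0.1 FPKM. More genes listed at 0 in SMC-Ctrl were then tested. Over all genes, 5880 of 17987 tested were called higher with no filter, and 5676 of 14356 with the filter of 0.1 FPKM. The added HOX genes had values in SMC-TAZ4SA only, so they could only come out higher, and nothing is read from these counts.

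Among the lists, the count of PRC2 genes called higher was 0 with the same total, the same upper quartile and the replicate block, and 0 to 1 with 1 library left out. That of trithorax and MLL genes was 0 with the same total, 1 with the same upper quartile, 1 with the replicate block and 1 to 2 with 1 library left out. The TALE count was 1 to 2 with 1 library left out, and that of cluster neighbours was 3 with the same total. Why these counts moved was not tested.

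With the replicate number as a block, 4735 genes were called higher and 4615 lower. Libraries with the same number did not deviate together (Pearson's r across genes of -0.25, -0.06 and -0.31), so the numbers were not taken to pair the samples. FPKM keeps no read number, so how far a value of 0 limits the level of a HOX gene in SMC-Ctrl cannot be given.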
